A study of Homo sapiens with 18 samples.

Results

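The comparison asked for which genes the effect of Stat3 siRNA differed between DU145 and CWR22Rv1, both established human prostate cancer cell lines. It used 12 of the 18 arrays of the series: 3 DU145 arrays and 3 CWR22Rv1 arrays after scramble control siRNA, and 3 of each line after Stat3 siRNA. The other 6 arrays were from the same lines after siRNA against Stat5a and Stat5b. Every group had been transfected with the same cationic lipid reagent and harvested 48 h later, so the control arrays share the transfection and a non-targeting siRNA. DU145 is grown from a metastasis, whereas CWR22Rv1 comes from a xenograft. Each line is 1 cell line, so a difference between them is a difference between these lines and not between kinds of tumour. The members were the 19775 genes with a probe set that names 1 gene symbol, each read by its brightest such probe set over the 18 arrays. The value compared was the log2 change in CWR22Rv1 (mean of the Stat3 siRNA arrays minus mean of the control arrays) minus the same change in DU145. A positive difference therefore means that a gene fell less or rose more in CWR22Rv1. Values written as a ± b are this difference and its standard error from the limma fit, with 3 arrays a group, and the threshold for a call was an adjusted p of 0.05.

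STAT3 is a transcription factor that is phosphorylated by JAK kinases when cytokines of the IL-6 family bind receptors that contain gp130, after which it pairs, enters the nucleus and binds DNA. Its textbook targets include its own feedback inhibitor SOCS3, cell cycle and survival genes, and genes of inflammation and invasion. In prostate cancer cells STAT3 is studied as a driver of growth and invasion, and DU145 is known for continuous STAT3 signalling through its own IL-6.

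The levels of line markers went with the labels. The mean level of 9 measured markers of DU145 cells was 11.7 in DU145 controls and 6.79 in CWR22Rv1 controls on the log2 scale, and that of 8 markers of luminal prostate cells was 5.19 and 8.14. Correlations ran from 0.993 to 0.998 within groups and from 0.909 to 0.915 between lines. The 3' minus 5' signal of ACTB, a sign of RNA integrity, averaged 0.546 in DU145 control and 0.559 in DU145 Stat3 siRNA arrays, and 0.76 and 0.74 in the CWR22Rv1 ones. The median standard deviation between arrays of a group was 0.132 in DU145 and 0.0836 in CWR22Rv1. The labels speak of triplicates without mentioning separate cultures, so p-values measure the spread between these arrays, which may be technical.

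STAT3 fell in both lines. Its DU145 levels were 10.91, 10.96 and 10.82 with control siRNA and 9.45, 9.19 and 9.20 after Stat3 siRNA. In CWR22Rv1 it read 7.40, 7.21 and 7.24 in controls and 6.04, 6.31 and 6.11 after Stat3 siRNA. Every Stat3 siRNA array lay below every control array of its line. On this main probe set DU145 kept more STAT3 signal after the siRNA than CWR22Rv1 had before it. That order depended on the probe set. The other 3 had means of 9.39, 6.76 and 4.32 in DU145 after Stat3 siRNA, against 6.54, 7.30 and 4.50 in CWR22Rv1 controls. On the main probe set the remaining signal was 32.6% of control in DU145 and 45.7% in CWR22Rv1, changes of -1.62 and -1.13. The difference of 0.49 ± 0.13 was at the edge of the call (adjusted p = 0.0495). It was no longer called without any 1 of 11 of the 12 arrays (every array but DU145 Stat3 siRNA replicate 1), with adjusted p up to 0.12. The other 3 STAT3 probe sets gave differences of 0.19, 0.39 and 0.30, with adjusted p of 0.713, 0.26 and 0.875 in a fit over all 41091 single-symbol probe sets. In that fit, which called 1.47% of probe sets, the main STAT3 probe set had an adjusted p of 0.0798, so 0 of the 4 were called. The mean of the 4 gave 0.34 (adjusted p = 0.226). The 95% interval on the main probe set was 0.22 to 0.76.

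The Stat3 siRNA effect differed between lines for 593 of 19775 genes (3.00%). Of these, 359 (1.82% of all genes) had a higher effect in CWR22Rv1 and 234 (1.18%) a lower one, and 3264 genes had an unadjusted p under 0.05. Sizes were moderate: the absolute difference among called genes ran from 0.276 to 2.12, with a median of 0.535, and was 1 or more for 50 genes. In all 593 the effects of the 3 arrays of one line lay beyond those of the other, which was also so for 34.2% of all genes. The larger change was in DU145 for 497 called genes and in CWR22Rv1 for 96. By the calls within a line, 410 of the 593 changed in DU145 and missed the threshold in CWR22Rv1, 263 of them falling and 147 rising. Another 62 changed in CWR22Rv1 and missed it in DU145, 79 changed the same way in both to unequal extents, 16 changed in opposite ways and 26 reached the threshold in neither line. This split by calls rests on an error estimate shared by 2 lines of unequal spread. With array weights by line the calls within each line changed, as given below.

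Within lines, Stat3 siRNA changed 3117 genes in DU145 (15.8%), of which 1486 rose (7.51% of all genes) and 1631 fell (8.25%). In CWR22Rv1 it changed 944 (4.77%), of which 544 rose (2.75%) and 400 fell (2.02%). This order rests on an error estimate shared by both lines. With array weights by line, which let each line have its own spread, 2059 genes were called in DU145 and 2421 in CWR22Rv1, whereas the count of genes whose effect differed was 619. The replicate numbers paired the arrays in DU145 but not in CWR22Rv1, and a replicate block within line called 903 differences. Rescaling the arrays changed the split of directions, from 359 higher and 234 lower as deposited to 284 and 292 with quantile normalisation and to 288 and 262 with cyclic loess. The count of 593 dropped to 371 without DU145 control replicate 1 and to between 292 and 354 without any one of the 6 CWR22Rv1 arrays.

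**Figure D1:**
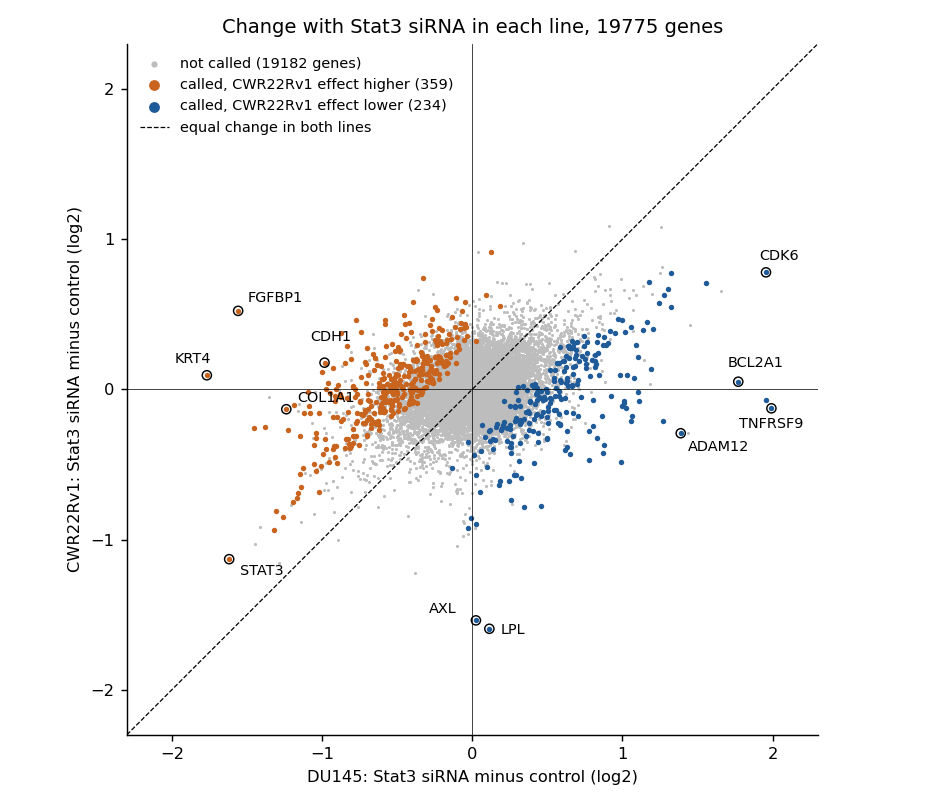
Log2 change with Stat3 siRNA in DU145 (horizontal axis) and CWR22Rv1 (vertical axis) for all 19775 genes, each change a mean of 3 arrays minus a mean of 3; the dashed line marks equal change. The 359 called genes with a higher CWR22Rv1 effect lie above the line and the 234 with a lower one below it, most of them spread along the DU145 axis; STAT3 at -1.62 and -1.13 lies low on both axes.

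The 12 largest positive differences ran from 1.09 to 2.08, and all 12 genes fell in DU145 (called) while none was called in CWR22Rv1. They held genes of epithelial adhesion and differentiation (CDH1, KRT4, PPL), secreted and matrix proteins (FGFBP1, COL1A1, SELENOP, ENPP2) and others (LXN, BIN1, F2RL2, TNNC1, CA11). In 6 of the 12, among them FGFBP1, the CWR22Rv1 control level was under the median of all values, 5.18. FGFBP1, a secreted carrier that frees fibroblast growth factors from the matrix, showed the largest difference of these. It read 9.13, 8.76 and 8.73 in DU145 controls and 7.39, 7.37 and 7.19 after Stat3 siRNA, and 4.16, 4.36 and 4.56 against 4.53, 4.76 and 5.36 in CWR22Rv1. DU145 arrays did not overlap, while in CWR22Rv1 1 Stat3 siRNA array lay under 1 control array. The changes of -1.56 and 0.52 differed by 2.08 ± 0.24 (adjusted p = 3.5e-04).

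CDH1, which encodes the epithelial cell adhesion molecule E-cadherin, was bright in both lines and so was measured well away from the lower end of the scale. It read 10.07, 10.15 and 10.07 in DU145 controls and 9.22, 9.12 and 9.0 after Stat3 siRNA, a level of 50.6% of control. In CWR22Rv1 it read 11.83, 11.81 and 11.85 in controls and 12.04, 11.95 and 12.05 after Stat3 siRNA. The arrays of the groups did not overlap in either line, although the CWR22Rv1 change of 0.18 was not called (adjusted p = 0.254). The difference was 1.16 ± 0.11 (adjusted p = 1.0e-04), and the second CDH1 probe set gave 1.32 (adjusted p = 0.00526 over probe sets). COL1A1, the alpha 1 chain of type I collagen, fell in DU145 from 7.32, 7.25 and 6.96 to 6.04, 6.02 and 5.77. In CWR22Rv1 it stayed between 7.60 and 7.91 over all 6 arrays, with overlapping groups. Its difference of 1.11 ± 0.15 (adjusted p = 0.00146) was met by 1 further probe set (1.00, adjusted p = 0.0154 over probe sets), while the other 3 gave 0.09, 0.01 and -0.29 and were not called. The mean of its probe sets gave 0.38 (adjusted p = 0.0876).

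Among the rest of these 12, LXN (latexin, a carboxypeptidase inhibitor) differed by 1.25 ± 0.16, TNNC1 (slow and cardiac troponin C) by 1.12 ± 0.18, and PPL (periplakin, which links keratins to desmosomes) by 1.13 ± 0.23, with adjusted p of 6.5e-04, 0.00317 and 0.0162. BIN1, a membrane-bending adaptor, differed by 1.24 ± 0.21 (adjusted p = 0.00591), but its other 4 probe sets ran from -0.19 to 0.70 without a call, and their mean with it gave 0.41 (adjusted p = 0.221). ENPP2, the enzyme autotaxin that makes lysophosphatidic acid, differed by 1.09 ± 0.28 (adjusted p = 0.0453), and its other probe set by 1.98 (adjusted p = 0.00101 over probe sets). The calls of KRT4 (a mucosal keratin, 1.86), SELENOP (a selenium carrier, 1.20), F2RL2 (a thrombin receptor, 1.13), CA11 (a carbonic anhydrase relative, 1.12) and ENPP2 were fragile to single arrays. KRT4 lost its call without any array but DU145 control replicate 3 and DU145 Stat3 replicate 1, SELENOP without any but DU145 control 3 and Stat3 2, and F2RL2 without any but DU145 control 2 and Stat3 1. CA11 lost it without any array but DU145 control 3, Stat3 1 and Stat3 2, and ENPP2 without any but DU145 Stat3 1 and CWR22Rv1 control 2. Adjusted p reached 0.0741 for KRT4, 0.0925 for SELENOP, 0.0983 for F2RL2, 0.0709 for CA11 and 0.108 for ENPP2. The second KRT4 probe set showed no such difference (-0.04, adjusted p = 0.938 over probe sets), and the second F2RL2 probe set gave 0.18 (0.653). With the mean of a gene's probe sets KRT4 gave 0.91 (adjusted p = 0.0583) and SELENOP 0.54 (0.0547).

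**Figure D2:**
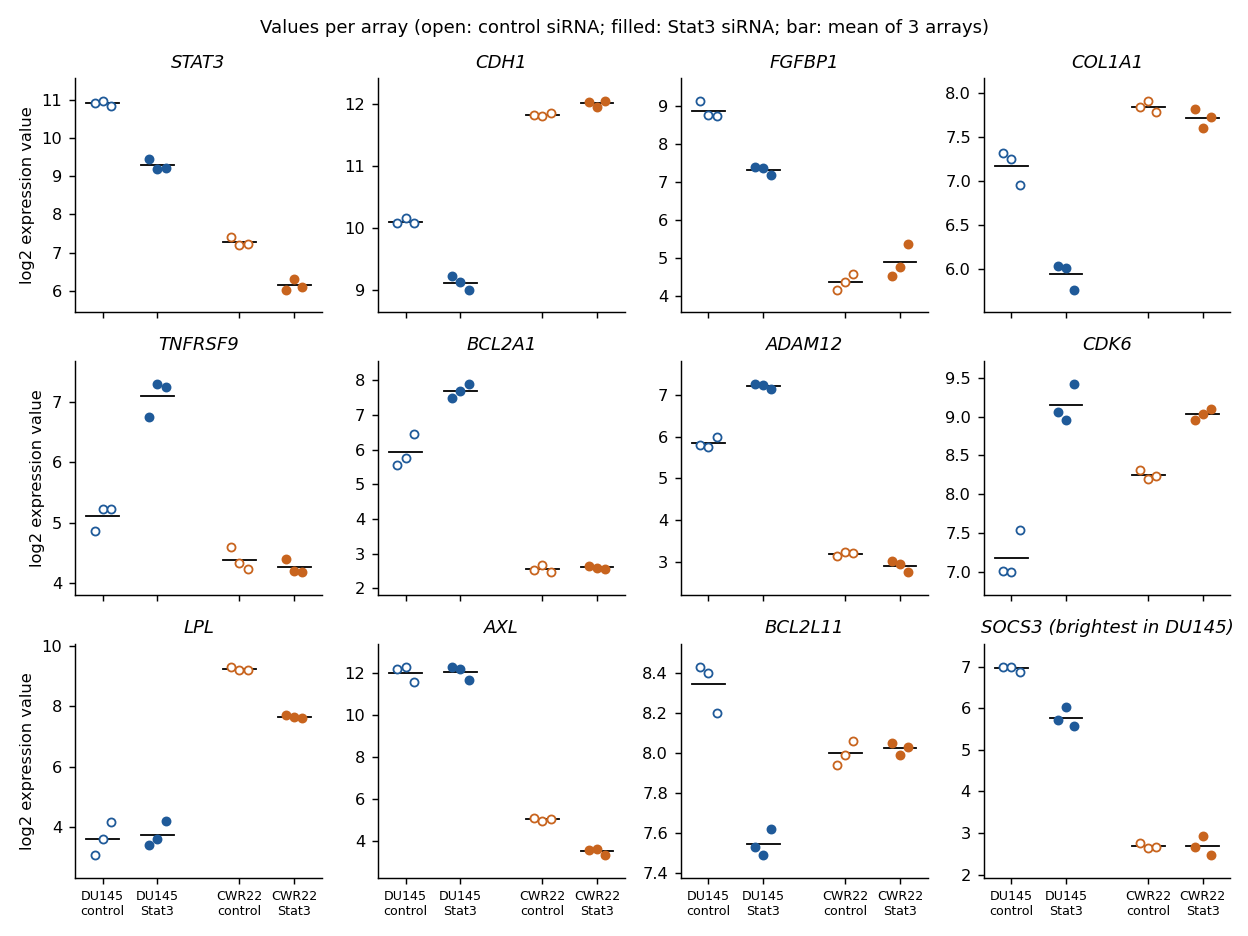
Log2 expression values of 12 genes in each array; open circles are control siRNA, filled circles Stat3 siRNA, blue DU145, orange CWR22Rv1, and bars the mean of 3 arrays, with a vertical scale of its own for each gene; the SOCS3 panel shows its probe set that was brightest in DU145. CDH1 drops from a mean of 10.10 in DU145 controls while CWR22Rv1 stays near 12, LPL and AXL drop in CWR22Rv1 and stay in place in DU145, and STAT3 drops in both.

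The 12 largest negative differences ran from -2.12 to -1.25. Of these genes 10 rose in DU145 (called), and 3 fell in CWR22Rv1 (LPL, AXL and AFAP1L2). In 10 of the 12 the CWR22Rv1 control level was under 5.18. TNFRSF9, the costimulatory TNF receptor 4-1BB, had the largest difference of all called genes. It read 4.86, 5.23 and 5.23 in DU145 controls and 6.75, 7.30 and 7.24 after Stat3 siRNA, and 4.60, 4.34 and 4.23 against 4.40, 4.21 and 4.18 in CWR22Rv1. The DU145 groups lay far apart and the CWR22Rv1 groups overlapped at a low level. The change was 1.99 against -0.13, a difference of -2.12 ± 0.21 (adjusted p = 1.1e-04). On its other probe sets the difference was smaller, -0.56 and -0.43, and not called (adjusted p = 0.0771 and 0.0777 over probe sets). BCL2A1, a survival protein of the BCL2 family, rose in DU145 from 5.55, 5.76 and 6.46 to 7.50, 7.68 and 7.90. In CWR22Rv1 it lay between 2.46 and 2.67 on all 6 arrays, near the lowest values of the table, and the difference was -1.72 ± 0.32 (adjusted p = 0.0104).

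ADAM12, a membrane metalloprotease, had the smallest adjusted p of all genes. It rose in DU145 from 5.80, 5.75 and 5.99 to 7.28, 7.26 and 7.16, and read 3.14, 3.23 and 3.20 against 3.02, 2.93 and 2.74 in CWR22Rv1. The groups did not overlap in either line, though the CWR22Rv1 change of -0.29 was not called (adjusted p = 0.0585). The difference was -1.68 ± 0.12 (adjusted p = 4.1e-06), and 1 of the 4 other ADAM12 probe sets was called as well (-1.56, adjusted p = 0.0106 over probe sets). The long noncoding RNA LINC00973 differed by -2.02 ± 0.27, the histone deacetylase gene HDAC9 by -1.48 ± 0.22 and NAV3, which encodes a microtubule-binding navigator protein, by -1.47 ± 0.29, all through a rise in DU145. The other HDAC9 probe sets gave -0.42, -0.23, -0.08 and -0.11 without a call. The 4 other NAV3 probe sets gave -1.04, -0.41, -0.33 and -0.10 without a call, and the mean of all 5 gave -0.67 (adjusted p = 0.111). The remaining rises in DU145 were those of ITGB1-DT (a transcript divergent from the integrin beta 1 gene, difference -1.30 ± 0.26), BEAN1 (a membrane protein, -1.27 ± 0.25) and RASL10A (a Ras-like GTPase, -1.25 ± 0.23).

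LPL and AXL reached their differences through a fall in CWR22Rv1. LPL, the lipase that frees fatty acids from circulating triglycerides, read 9.32, 9.22 and 9.22 in CWR22Rv1 controls and 7.72, 7.65 and 7.61 after Stat3 siRNA, or 33.1% of control. In DU145 it read 3.08, 3.62 and 4.16 against 3.40, 3.60 and 4.20, low and overlapping. The difference was -1.71 ± 0.33 (adjusted p = 0.0112), and the second LPL probe set gave -1.71 as well (adjusted p = 5.3e-05 over probe sets). AXL, a receptor tyrosine kinase for GAS6, read 5.11, 4.93 and 5.06 in CWR22Rv1 controls and 3.55, 3.62 and 3.32 after Stat3 siRNA. In DU145 it was among the bright genes at 12.22, 12.33 and 11.59 against 12.31, 12.22 and 11.68. The groups were apart in CWR22Rv1 and overlapped in DU145, and the difference was -1.56 ± 0.31 (adjusted p = 0.012). The other AXL probe set gave -0.22 (adjusted p = 0.7 over probe sets).

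Promoter sequence was set beside these genes because STAT dimers bind the palindrome TTCNNNGAA, where N is any base. RefSeq windows of GRCh38.p14, from 250 bases before to 50 after a start site, were found for 59 of 80 named genes, and 5 held the motif: TNFRSF9, BCL2A1, LIFR, ZNF793-AS1 and IGF2BP3. The windows of 2 genes with large rises in DU145 and of LIFR, the receptor gene that fell in both lines, are printed 5' to 3' with the match in capitals. That of TNFRSF9 is chr1:7940790-7941089, that of BCL2A1 chr15:79971147-79971446 and the one printed for LIFR chr5:38595356-38595655, all on the minus strand, and the matches begin 187, 168 and 165 bases before the start. LIFR had 3 windows. A match also stood in chr5:38557418-38557717, 182 bases before that start, and the remaining window held none.
TNFRSF9: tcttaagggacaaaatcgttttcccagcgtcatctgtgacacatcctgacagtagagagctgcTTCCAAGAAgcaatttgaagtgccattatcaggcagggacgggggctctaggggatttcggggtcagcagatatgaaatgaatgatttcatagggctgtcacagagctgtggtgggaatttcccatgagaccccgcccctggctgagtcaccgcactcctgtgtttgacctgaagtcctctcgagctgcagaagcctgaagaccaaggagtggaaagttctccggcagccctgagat
BCL2A1: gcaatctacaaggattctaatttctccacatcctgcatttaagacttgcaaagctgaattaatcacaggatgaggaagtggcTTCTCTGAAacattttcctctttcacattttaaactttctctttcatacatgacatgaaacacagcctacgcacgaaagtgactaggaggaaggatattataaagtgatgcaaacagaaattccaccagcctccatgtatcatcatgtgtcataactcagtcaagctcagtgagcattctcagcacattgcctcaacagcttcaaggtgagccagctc
LIFR: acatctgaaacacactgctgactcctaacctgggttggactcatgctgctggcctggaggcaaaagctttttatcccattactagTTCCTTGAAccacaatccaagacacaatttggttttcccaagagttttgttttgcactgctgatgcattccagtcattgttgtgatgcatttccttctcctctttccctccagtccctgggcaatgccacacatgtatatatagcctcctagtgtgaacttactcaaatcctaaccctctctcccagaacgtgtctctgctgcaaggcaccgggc
The motif reads the same on both strands, and 7.66% of all 35116 windows hold it. Among windows of genes whose effect differed, 53 of 738 held it (7.18%), against 1462 of 21490 windows of all genes tested (6.8%). It stood in 34 of 424 windows of genes with a higher CWR22Rv1 effect (8.02%) and in 19 of 314 with a lower one (6.05%). The stricter TTCCNGGAA, whose matches all lie within the first motif, stood in 13 of 738 windows of called genes (1.76%) and in 1.15% of all windows. By direction it stood in 9 of 424 (2.12%) and 4 of 314 (1.27%), against 249 of 21490 windows of all genes tested (1.16%). The shares of the first motif lie near the background, and those of the stricter one rest on few windows and were not tested. A match is a description of the sequence, not of binding.

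Opposite changes that were each called were found for 16 genes (0.0809% of all genes), 9 falling in DU145 and rising in CWR22Rv1 and 7 the reverse. CD44, the receptor for hyaluronan, rose in DU145 from 10.22, 10.20 and 10.42 to 10.66, 10.64 and 10.86 and fell in CWR22Rv1 from 8.78, 8.86 and 8.84 to 8.58, 8.49 and 8.54. Neither line's groups overlapped, and the difference was -0.73 ± 0.10 (adjusted p = 0.00157). None of the 12 other CD44 probe sets was called, with differences of -0.62 to 0.13, and the mean of all gave -0.32 (adjusted p = 0.2). IGF2BP3, an oncofetal RNA-binding protein, fell in DU145 from 9.17, 9.12 and 9.24 to 8.91, 8.87 and 8.93 and rose in CWR22Rv1 from 10.17, 10.09 and 10.17 to 10.52, 10.51 and 10.56. Its difference was 0.66 ± 0.09 (adjusted p = 0.00138), and 2 of its 3 other probe sets were called with 0.85 and 0.82.

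GALNT3, which starts mucin-type O-glycosylation, read 7.03, 6.96 and 7.05 against 6.71, 6.55 and 6.56 in DU145 and 8.38, 8.32 and 8.39 against 8.81, 8.66 and 8.76 in CWR22Rv1. RAB27B, a GTPase of vesicle release, changed by -0.44 and 0.34, and the iron exporter gene SLC40A1 by -0.45 and 0.49, the latter from a DU145 level of only 3.32. In the same direction stood the noncoding ZNF793-AS1 (-0.42 and 0.44) and the tubulin pseudogene TUBA3FP (-0.32 and 0.37), whose signal cannot be told apart from near-identical tubulin genes. TUBA3FP lost its call without CWR22Rv1 control replicate 2 (adjusted p = 0.0507). The reverse was seen for AFAP1L2, an adaptor of kinase signalling (0.78 and -0.47), for PDPN, the membrane mucin podoplanin (0.26 and -0.39), and for SEMA3C, a secreted semaphorin (0.25 and -0.27). On other probe sets SLC40A1 gave 0.22, SEMA3C -0.41 and PDPN -0.19, 0.13 and 0.08, none called. The mean of probe sets gave 0.58 for SLC40A1 (adjusted p = 0.0619), -0.46 for SEMA3C (0.0899) and -0.16 for PDPN (0.514). Differences over these 10 genes ran from -1.25 to 0.94. The number of such genes was sensitive to single arrays: it was 10 without DU145 control replicate 1 and between 3 and 6 without any one of the 6 CWR22Rv1 arrays, and 35 with the replicate block within line.

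**Figure D3:**
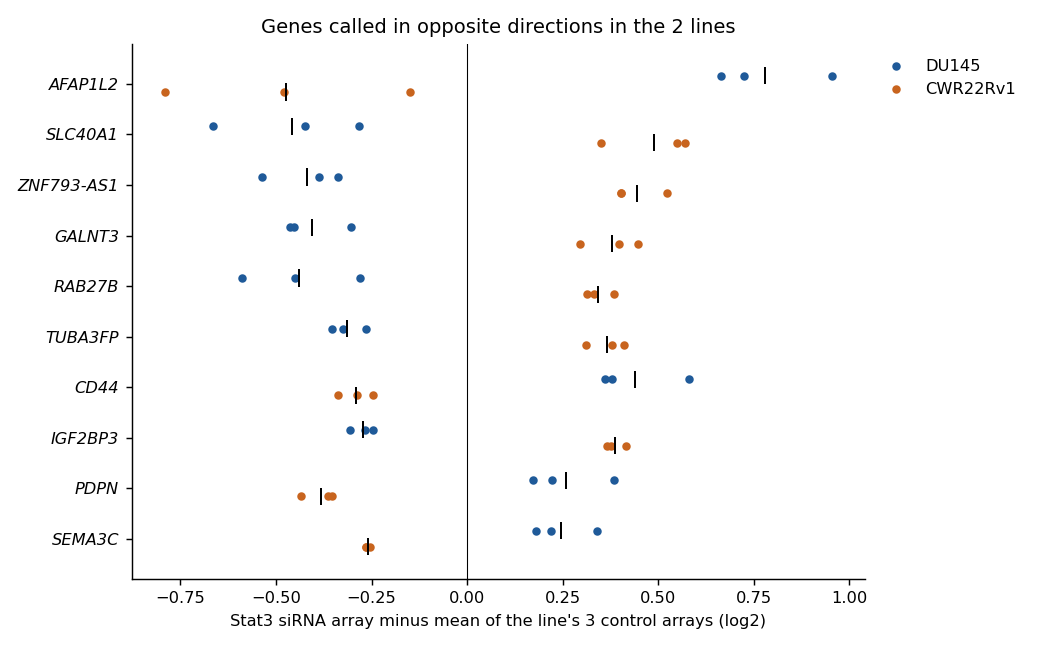
Log2 value of each Stat3 siRNA array minus the mean of the 3 control arrays of its line, for 10 genes called in opposite directions; points are arrays, short bars the mean of 3, blue DU145 and orange CWR22Rv1. In all 10 genes the 3 DU145 points lie on one side of zero and the 3 CWR22Rv1 points on the other.

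Many genes changed in the same direction in both lines. Of the 593 genes called in the same direction in both lines (a number that happens to equal that of the differing genes), 79 had a called difference, 78 of them larger in DU145, while for 417 the 95% interval of the difference lay within 0.5 of zero. That window is wider than the lowest called difference, 0.276. The 4 examples that follow were picked for a difference under 0.1 in size, so their small differences were fixed by the choice. SMAP2, an Arf GTPase regulator, rose by 0.81 and 0.75, with a difference of -0.06 and a 95% interval of -0.32 to 0.20. The methyltransferase gene CARNMT1 rose by 0.85 and 0.77 (interval -0.42 to 0.25), CARF by 0.86 in each line (-0.38 to 0.39), and the pseudogene MEIS3P1 fell by 0.76 and 0.78 (-0.24 to 0.20). Over all genes the interval had a median half-width of 0.297 and lay within 0.5 of zero for 11962 genes (60.5%), so differences smaller than this were mostly not resolvable with 3 arrays a group.

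The textbook targets of STAT3, each read on its main probe set, had called differences about as often as all genes (3.00%). Of 29 measured, 1 was called with a higher CWR22Rv1 effect and 0 with a lower one, beside 1.82% and 1.18% of all genes. Their median difference was -0.0013 against -0.002 over all genes, and between -0.05 (without DU145 Stat3 3) and 0.038 (without DU145 Stat3 1) when single arrays were left out. The called gene was CEBPD, a C/EBP transcription factor induced by IL-6. It fell in DU145 from 9.91, 9.69 and 9.52 to 9.23, 9.31 and 9.03 and read 8.63, 8.48 and 8.47 against 8.79, 8.74 and 8.82 in CWR22Rv1, where the 0.26 was not called. The lines' effects did not overlap, and the difference was 0.77 ± 0.14 (adjusted p = 0.00801).

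SOCS3, the feedback inhibitor that STAT3 itself induces, depended on the probe set. On the probe set with the highest mean it read 5.97, 6.13 and 5.93 against 6.22, 5.64 and 5.93 in DU145 and 5.87, 5.77 and 5.81 against 5.86, 5.91 and 5.63 in CWR22Rv1, with overlapping groups in each line (difference 0.07 ± 0.17, adjusted p = 0.899). On the probe set that was brightest in DU145 it read 7.0, 7.0 and 6.88 in DU145 controls and 5.72, 6.03 and 5.57 after Stat3 siRNA, or 43.9% of control. The same probe set read 2.75, 2.64 and 2.66 against 2.66, 2.94 and 2.47 in CWR22Rv1, near the lowest values of the table. The DU145 groups did not overlap here, but the mean over the 18 arrays, by which probe sets were chosen, was 4.70 against 5.93 for the other. The difference on it was 1.20 ± 0.18 (adjusted p = 0.00342 in the fit over probe sets, where 603 of 41091 were called, 1.47%), and it was called without each of the 12 arrays in turn (adjusted p up to 0.0136). The 2 other SOCS3 probe sets gave 0.23 and -0.16 without a call. The look at single probe sets of SOCS3 and VEGFA was chosen after their values were seen.

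VEGFA, the angiogenic growth factor, fell in DU145 from 11.62, 11.83 and 11.93 to 10.97, 11.16 and 11.36 and read 10.54, 10.60 and 10.56 against 10.51, 10.37 and 10.48 in CWR22Rv1. The difference of 0.52 ± 0.14 missed the threshold (adjusted p = 0.056) and passed it with the replicate block within line (adjusted p = 0.0072). Of 23 settings, the main fit included, VEGFA was called in 9. Of its 3 other probe sets 2 were called, with 0.88 and 0.68 (adjusted p = 0.0206 and 0.0105 over probe sets), the first of them not without CWR22Rv1 control replicate 3, Stat3 replicate 1 or Stat3 replicate 2. MUC1, a membrane mucin, fell by 0.91 in DU145 and read -0.15 in CWR22Rv1 (0.76 ± 0.20, adjusted p = 0.0535, and 0.00654 with the block). MUC1 was called in 6 of the 23 settings, among them the fit of the 12 control and Stat3 siRNA arrays alone (adjusted p = 0.032). PIM1, a survival kinase, fell by 0.41 in DU145 with -0.04 in CWR22Rv1 (0.36 ± 0.10, adjusted p = 0.0709, and 0.0375 with the filter on low values). VEGFA passed with the mean of its probe sets too (0.73, adjusted p = 0.00922).

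The other targets named here had no called difference. CCND1 (cyclin D1) rose by 0.32 and 0.26, with an interval of -0.25 to 0.12 for the difference. BIRC5 (survivin) had -0.18 to 0.18 and BCL2L1 (the survival protein BCL-XL) -0.26 to 0.33, with changes of 0.08 or less in size in each line. For MCL1, another survival protein, the interval was -0.51 to -0.03 without a call (adjusted p = 0.225). MYC had -0.81 to 0.11, wide enough to hold a difference of a size many called genes had. VIM (vimentin) rose by 0.22 in DU145 with 0.02 in CWR22Rv1 and an interval of -0.41 to 0.01.

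Among 20 IL-6 family ligands, receptors and JAK kinases, 1 had a called higher effect in CWR22Rv1 and 2 a lower one, beside 1.82% and 1.18% of all genes. IL6R, the ligand-binding IL-6 receptor, rose in DU145 from 8.35, 8.49 and 8.45 to 9.29, 9.24 and 9.20, and read 7.37, 7.32 and 7.31 against 7.55, 7.45 and 7.56 in CWR22Rv1. Groups were apart in both lines, yet the CWR22Rv1 change of 0.19 was not called (adjusted p = 0.137), and the difference was -0.63 ± 0.10 (adjusted p = 0.00301). LIFR, the receptor for leukaemia inhibitory factor, fell in both lines, by 1.15 in DU145 (8.78, 9.08 and 9.09 to 7.76, 7.96 and 7.80) and by 0.56 in CWR22Rv1 (8.38, 8.15 and 8.32 to 7.68, 7.70 and 7.78). Its difference was 0.59 ± 0.13 (adjusted p = 0.0251), no longer called after quantile normalisation (adjusted p = 0.0542) or without DU145 control 2, control 3 or Stat3 3 or CWR22Rv1 control 2 or any CWR22Rv1 Stat3 array (up to 0.068). With the mean of its probe sets LIFR gave 0.29 (adjusted p = 0.174).

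JAK1, a kinase of these receptors, rose by 0.31 in DU145 with -0.07 in CWR22Rv1, a difference of -0.37 ± 0.09 (adjusted p = 0.0304). That call ended without DU145 control 1 or 2, any CWR22Rv1 control or CWR22Rv1 Stat3 1 or 2 (up to 0.0892), and the mean of its probe sets gave -0.14 (adjusted p = 0.567). The shared signal chain gp130 (IL6ST) changed by 0.06 and -0.21, JAK2 by 0.09 and 0.28, and the oncostatin M receptor OSMR fell by 0.26 in each line, none with a called difference. Of 18 brakes on JAK-STAT signalling, 2 had a called higher effect in CWR22Rv1 and 0 a lower one, beside 1.82% and 1.18% of all genes, with a median difference of 0.13. They were PIAS3, an inhibitor of STAT3 DNA binding (0.37 ± 0.09, adjusted p = 0.0405), and PTPN6, the phosphatase SHP-1 (0.48 ± 0.12, adjusted p = 0.0398). After quantile normalisation neither was called (adjusted p = 0.0678 and 0.0841).

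Several epithelial genes were among those that fell in DU145. Of 21 measured luminal and epithelial genes, 6 had a called higher effect in CWR22Rv1 and 0 a lower one, beside 1.82% and 1.18% of all genes. A difference above zero was found for 18 of them, beside 9785 of all 19775 genes, and the median was 0.21. Within DU145 8 of them fell and 1 rose, and within CWR22Rv1 1 fell and 1 rose, beside 8.25% and 7.51% of all genes in DU145 and 2.02% and 2.75% in CWR22Rv1. Beside CDH1, the tight junction gene CLDN7 (claudin 7) fell in DU145 from 8.26, 8.34 and 8.32 to 8.0, 7.90 and 7.79 and read 10.95, 11.04 and 10.89 against 11.03, 11.11 and 11.10 in CWR22Rv1. The groups overlapped only in CWR22Rv1, and the difference was 0.53 ± 0.09 (adjusted p = 0.00392). MAL2, a protein of apical transport, fell in both lines, by 0.81 and 0.38 (difference 0.43 ± 0.09, adjusted p = 0.0153, and 0.0504 without CWR22Rv1 control replicate 2). OCLN (occludin) and SPINT1 (a protease inhibitor of epithelia) differed by 0.36 and 0.48, through falls of 0.25 and 0.44 in DU145. OCLN missed the threshold with the replicate block shared by both lines (adjusted p = 0.0519), and SPINT1 with the mean of its probe sets (0.29, adjusted p = 0.172).

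ESRP1, the splicing factor of epithelial transcripts, depended on the probe set. On its main probe set it rose by 0.40 in CWR22Rv1 (10.28, 10.14 and 10.21 to 10.69, 10.58 and 10.57) with -0.08 in DU145 (0.49 ± 0.12, adjusted p = 0.0322). That call ended without DU145 control 1, Stat3 1 or Stat3 2, or any CWR22Rv1 array but control 1 (up to 0.0892). On its other probe set ESRP1 changed by -0.40 in DU145 and 0.19 in CWR22Rv1. The difference there was 0.59 (adjusted p = 0.023 over probe sets, where the main probe set had 0.0574). The list's count was 3 without DU145 control 1, DU145 Stat3 2, CWR22Rv1 control 3 or any CWR22Rv1 Stat3 array, and 2 without CWR22Rv1 control 2. Of 17 mesenchymal genes, 0 had a higher and 2 a lower called effect in CWR22Rv1 (AXL and LOX), beside 1.82% and 1.18% of all genes, with a median difference of -0.11. That median was -0.19 without DU145 control 1 and -0.046 without DU145 Stat3 1.

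Of 9 measured markers of DU145 cells, 0 had a higher and 3 a lower called effect in CWR22Rv1, beside 1.82% and 1.18% of all genes, and the median difference was -0.62. The 3 were CD44, AXL and MET, the receptor of hepatocyte growth factor. MET rose in DU145 from 11.36, 11.60 and 11.71 to 12.03, 12.12 and 12.20 and read 7.90, 7.81 and 7.77 against 7.65, 7.54 and 7.88 in CWR22Rv1, where the groups overlapped (difference -0.70 ± 0.14, adjusted p = 0.013). The mean of the MET probe sets gave -0.59 (adjusted p = 0.159). The mean level of the whole list was 11.7 to 11.8 in DU145 control arrays and 11.8 to 11.9 in Stat3 siRNA arrays, and 6.73 to 6.87 against 6.25 to 6.51 in CWR22Rv1. The luminal prostate markers had 0 called differences of 8, with a median of 0.017, which was -0.096 without DU145 control 1 and 0.14 without DU145 Stat3 1. The part of line-specific markers in the other differences was not tested.

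Cell death genes differed in both directions. Of 22 apoptosis regulators, 1 had a called higher effect in CWR22Rv1 and 3 a lower one, beside 1.82% and 1.18% of all genes. The median of 0.016 was -0.026 without DU145 control 3 and 0.048 without CWR22Rv1 Stat3 2. BCL2L11, which encodes the death-promoting protein BIM, fell in DU145 from 8.43, 8.40 and 8.20 to 7.53, 7.49 and 7.62, or 57.7% of control, and read 7.94, 7.99 and 8.06 against 8.05, 7.99 and 8.03 in CWR22Rv1. The DU145 groups were apart and the CWR22Rv1 groups overlapped (0.82 ± 0.09, adjusted p = 3.5e-04). The other BCL2L11 probe sets gave -0.02 to 0.49 without a call, though the mean of all was called. TNFRSF10B, the death receptor DR5, rose in DU145 from 10.06, 10.02 and 10.05 to 10.84, 10.74 and 10.82 with a change of 0.17 in CWR22Rv1 (-0.59 ± 0.09, adjusted p = 0.00359). The mean of its probe sets gave -0.37 (adjusted p = 0.0724). PMAIP1 (NOXA, another death-promoting protein) fell by 0.48 in CWR22Rv1 with 0.31 in DU145 (-0.79 ± 0.18, adjusted p = 0.029), a call lost without any CWR22Rv1 array or DU145 control 1, control 2 or Stat3 3 (up to 0.0721).

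TNFRSF10B and PMAIP1 are also p53 targets, of which 0 of 18 had a higher and 3 a lower called effect, beside 1.82% and 1.18% of all genes. The third was CCNG1 (cyclin G1), which rose by 0.75 in DU145 and by 0.20 in CWR22Rv1 (-0.55 ± 0.08, adjusted p = 0.00157). Of 33 mitotic genes, 19 rose in DU145 and 20 in CWR22Rv1, beside 7.51% and 2.75% of all genes. Of these, 15 rose in both lines, beside 338 of all 19775 genes (1.71%). Their median changes were 0.21 and 0.23, and 1 difference was called (CDC25B, a phosphatase that activates CDK1, 0.44). CDC25B was not among the genes that rose: it fell by 0.58 in DU145 and read -0.14 in CWR22Rv1. Of 34 genes of DNA replication, 13 rose in DU145 and 7 in CWR22Rv1, the 7 in both lines, and 0 had a higher and 3 a lower called effect, beside 1.82% and 1.18% of all genes: the replication factors GINS2 (-0.41 ± 0.07) and GINS1 (-0.35 ± 0.09) and the repair enzyme UNG (-0.32 ± 0.07). GINS1 and UNG lost their calls without any CWR22Rv1 array or DU145 control 1, control 2 or Stat3 3, GINS1 also without DU145 Stat3 2, with adjusted p up to 0.104 and 0.0785. The 2 other GINS2 probe sets gave -0.15 and -0.11 without a call, and the mean of all 3 gave -0.22 (adjusted p = 0.21).

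CDK6, a kinase that drives entry into S phase, rose in both lines and more in DU145. It rose in DU145 from 7.02, 7.0 and 7.54 to 9.06, 8.96 and 9.42, or 388% of control, and in CWR22Rv1 from 8.31, 8.20 and 8.24 to 8.96, 9.03 and 9.10, or 172%. The groups were apart in both lines, and after Stat3 siRNA the lines read nearly the same level from unequal starts. The difference was -1.18 ± 0.20 (adjusted p = 0.00563), and 2 of its 6 other probe sets were called with -1.10 and -1.18, while the mean of all gave -0.50 (adjusted p = 0.123). The inhibitor gene CDKN2B rose by 0.41 in CWR22Rv1 with -0.11 in DU145 (0.53 ± 0.10, adjusted p = 0.0122). These were 1 called gene in each direction out of 16 inhibitors and G1 kinases, beside 1.82% and 1.18% of all genes.

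Of 30 matrix genes and proteases of invasion, 2 had a called higher effect in CWR22Rv1 and 3 a lower one, beside 1.82% and 1.18% of all genes, with a median of -0.11. Beside COL1A1 and ADAM12, the heparan sulphate cutter HPSE fell in DU145 from 8.40, 8.42 and 8.23 to 7.53, 7.16 and 7.24 and read 6.89, 6.75 and 6.81 against 6.58, 6.38 and 6.50 in CWR22Rv1 (0.71 ± 0.13, adjusted p = 0.00924). ADAM19, a relative of ADAM12, rose by 1.08 in DU145 with 0.08 in CWR22Rv1 (-1.0 ± 0.19, adjusted p = 0.0113). Its other probe set gave 0.00, and the mean of both -0.50 (adjusted p = 0.105). COL13A1, a membrane collagen, differed by -1.08, and by -0.42 with the mean of its probe sets (adjusted p = 0.0557). The list thus held members that fell and members that rose in DU145.

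Of 18 hypoxia targets, 3 had a higher and 1 a lower called effect, beside 1.82% and 1.18% of all genes. ERO1A, the oxidase that forms disulphide bonds in the endoplasmic reticulum, rose in CWR22Rv1 from 8.67, 8.60 and 8.57 to 9.26, 9.25 and 9.21 with 0.09 in DU145 (0.53 ± 0.09, adjusted p = 0.00487). The vasodilator gene ADM fell by 0.57 in DU145 and read 0.29 in CWR22Rv1 (0.86 ± 0.17, adjusted p = 0.0121). LOX, which cross-links collagen, differed by -1.05 and P4HA1, which hydroxylates it, by 0.44. Their calls ended without 8 and 10 of the 12 arrays: LOX without any but DU145 control 3, Stat3 1 and Stat3 2 and CWR22Rv1 control 2, and P4HA1 without any but DU145 control 1 and Stat3 3 (up to 0.0651 and 0.0929). With the mean of probe sets ERO1A gave 0.30 (adjusted p = 0.0504), LOX -0.83 (0.117) and P4HA1 0.27 (0.235).

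Of 19 NRF2 targets, 3 had a higher and 0 a lower called effect, beside 1.82% and 1.18% of all genes, and the median difference was 0.2. Within DU145 8 of them fell and 0 rose, beside 8.25% and 7.51% of all genes. The called genes were AKR1C3 and AKR1C2, steroid-reducing enzymes whose probe sets can pick up related transcripts (1.04 ± 0.24 and 0.59 ± 0.15), and the cystine transporter gene SLC7A11 (0.62 ± 0.14). The count changed with most settings: it was 1 gene after quantile or cyclic loess normalisation, 0 without DU145 control 1, control 2 or Stat3 3 or any CWR22Rv1 array but Stat3 1, and 1 without DU145 Stat3 2 or CWR22Rv1 Stat3 1. SLC7A11 was not called with the replicate block within line (adjusted p = 0.0593), nor AKR1C2 with the mean of its probe sets (0.35, adjusted p = 0.0719).

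Of 22 immediate-early and feedback genes of MAPK signalling, 1 had a higher and 2 a lower called effect, beside 1.82% and 1.18% of all genes. SPRED2, an inhibitor of ERK signalling, rose by 0.69 in DU145 with 0.21 in CWR22Rv1 (-0.48 ± 0.10, adjusted p = 0.0131). The AP-1 subunit gene FOSL1 rose by 0.78 in DU145 with -0.28 in CWR22Rv1 (-1.06 ± 0.24, adjusted p = 0.0256), and the phosphatase gene DUSP4 read -0.24 and 0.32 (0.55 ± 0.14, adjusted p = 0.0427). DUSP4 lost its call without any array but DU145 Stat3 3, and FOSL1 without DU145 control 1, control 2 or Stat3 3 or CWR22Rv1 control 1, control 2, Stat3 1 or Stat3 2 (up to 0.107 and 0.0682). The mean of probe sets gave -0.40 for SPRED2 (adjusted p = 0.0717) and 0.61 for DUSP4 (0.0929).

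The RNA interference machinery, through which the siRNA acts, had 1 called higher and 2 lower effects of 12, beside 1.82% and 1.18% of all genes. TNRC6C, a partner of the Argonaute proteins, rose by 0.67 in DU145 with 0.10 in CWR22Rv1 (-0.57 ± 0.11, adjusted p = 0.0122). AGO4 rose by 0.97 and 0.47 (-0.50 ± 0.12, adjusted p = 0.0304), and TNRC6A fell by 0.64 in DU145 with -0.23 in CWR22Rv1 (0.41 ± 0.11, adjusted p = 0.0495). With the mean of all probe sets of a gene, 0 of the 12 were called, and TNRC6C, AGO4 and TNRC6A gave -0.12, -0.05 and 0.21 (adjusted p = 0.617, 0.871 and 0.192). AGO4 lost its call without DU145 control 1, control 2 or Stat3 3 or any CWR22Rv1 array but control 1, and TNRC6A without any array but DU145 Stat3 3 (up to 0.0836 and 0.112).

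Other lists had few calls, to be read beside 1.82% of all genes called with a higher CWR22Rv1 effect and 1.18% with a lower one. Over all 19775 genes 9785 had a difference above zero. Interferon-stimulated genes had a median difference of 0.23, with 29 of 40 above zero, and 1 called (USP18, an inhibitor of interferon signalling, 0.46). That median lay between 0.079, without DU145 Stat3 replicate 3, and 0.32, without DU145 Stat3 replicate 2. NF-kB targets had a median of -0.29, with 5 of 24 above zero and 1 called (the chemokine CCL20, -0.44, from levels under 4). TGF-beta targets had 2 called of 21, SMAD6 (0.53) and ID3 (0.47), both higher, where 1.82% of all genes were. The unfolded protein response had 1 higher and 1 lower call of 26, SLC7A11 (0.62) and HERPUD1 (-0.37). With the mean of probe sets SMAD6 gave 0.19 and HERPUD1 -0.15 (adjusted p = 0.317 and 0.552). Single calls in other lists were those of TM7SF2 in sterol synthesis (0.59) and ACSL1 in fatty acid metabolism (-0.62). Among markers of other cell types, COL1A1 was the 1 called of 9 for fibroblasts and CD14 the 1 of 6 for leukocytes (1.07, through a fall of 1.09 in DU145), and 0 of 8 neuroendocrine, 0 of 6 basal and 0 of 7 endothelial markers were called. Ribosomal proteins, the proteasome, oxidative phosphorylation, glycolysis, heat shock proteins, housekeeping controls and androgen-responsive genes had 0 called differences, and their medians ran from -0.13 for androgen-responsive genes to 0.088 for glycolysis. The first was -0.19 without DU145 Stat3 2 and -0.07 without DU145 Stat3 3, the second 0.035 without DU145 control 3 and 0.12 without DU145 Stat3 3.

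Some calls near the threshold also ended in other fits. With the 12 control and Stat3 siRNA arrays alone, KRT4, F2RL2, ENPP2, LIFR, JAK1, UNG, GINS1, DUSP4, AKR1C2, P4HA1, AGO4, TNRC6A, PIAS3, PTPN6, CDC25B, CCL20, SPINT1, COL13A1, SMAD6, HERPUD1 and ACSL1 were not called, with adjusted p of 0.0515 to 0.0994. After quantile or cyclic loess normalisation SELENOP, AKR1C3, AKR1C2, TNRC6A, PIAS3, PTPN6, CDC25B, USP18, CCL20 and SPINT1 were not called (0.0502 to 0.0988), nor COL13A1 and SMAD6 after quantile normalisation (0.0545 and 0.0561). With array weights by line ENPP2, CCL20 and COL13A1 missed the threshold (0.081, 0.0637 and 0.0825). CCL20 missed it as well with the intensity trend (0.0781).

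Calls near the threshold rested on single arrays in these lists as well. Of the 17 genes named for these lists after their values were seen, CEBPD, CDKN2B, CDK6, ID3, TM7SF2 and CD14 were called without each of the 12 arrays in turn, and 11 were not. SPINT1 kept its call only without DU145 Stat3 1, CDC25B only without DU145 control 3 or Stat3 1, HERPUD1 only without DU145 control 3 or Stat3 3, and CCL20 only without DU145 Stat3 3 or CWR22Rv1 control 1. PIAS3 kept it without DU145 control 2, Stat3 1 or Stat3 3, PTPN6 without DU145 control 3 or Stat3 3 or CWR22Rv1 control 3, USP18 without DU145 control 3, Stat3 1 or Stat3 2, and OCLN without DU145 control 3 or Stat3 1 or CWR22Rv1 control 1. COL13A1 lost its call without 8 arrays (DU145 control 1, control 2, Stat3 2 and Stat3 3, CWR22Rv1 control 2, control 3, Stat3 2 and Stat3 3). ACSL1 lost it without 8 (the same DU145 arrays, and CWR22Rv1 control 1, control 3, Stat3 1 and Stat3 2) and SMAD6 without 7 (DU145 control 1 and 2 and every CWR22Rv1 array but Stat3 2). Adjusted p over these 11 reached 0.114.

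**Figure D4:**
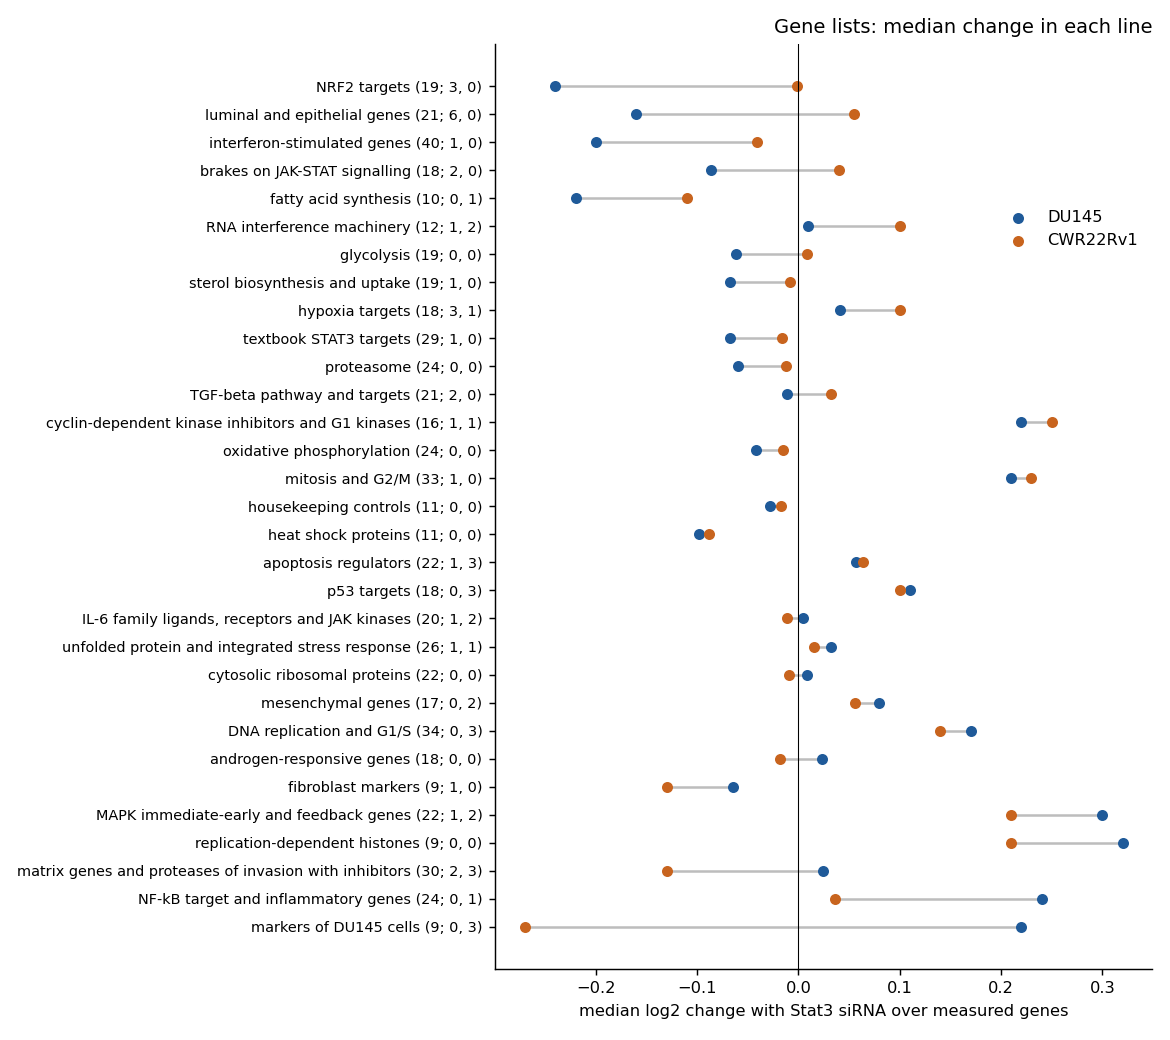
Median log2 change with Stat3 siRNA over the measured genes of each list with at least 9 measured genes, in DU145 (blue) and CWR22Rv1 (orange). Brackets give the genes measured, then the called differences with a higher and with a lower CWR22Rv1 effect. Lists of mitosis and G1 kinases lie near 0.2 in both lines, while NRF2 targets (top) and markers of DU145 cells (bottom) are the widest apart, and the median difference over all 19775 genes was -0.002.

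The Stat5a/b siRNA arrays give the same genes under another siRNA, and both comparisons share the control arrays of each line. The 2 sets of calls are therefore not independent. The Stat5a/b effect differed between lines for 2357 genes (11.9%). Of the 593 genes called with Stat3 siRNA, 262 (44.2%) were among them. Called in the same direction with Stat5a/b siRNA were 10 of the 12 largest positive differences and 3 of the 12 largest negative ones. With Stat5a/b siRNA, CDH1 changed by -1.18 in DU145 and 0.22 in CWR22Rv1, beside -0.98 and 0.18 with Stat3 siRNA, and FGFBP1 by -1.72 and 0.58, beside -1.56 and 0.52. AXL changed by -0.62 and -1.48 with Stat5a/b siRNA. TNFRSF9, BCL2A1, ADAM12 and LPL read -0.16, 0.11, -0.03 and 0.07 in DU145 and -0.10, 0.11, -0.17 and -0.15 in CWR22Rv1, and the SOCS3 probe set brightest in DU145 read 0.27 and 0.18. F2RL2 read 1.08 in DU145 with Stat5a/b siRNA and -1.38 with Stat3 siRNA.

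Setting the Stat3 siRNA arrays directly against the Stat5a/b siRNA arrays of the same line removes the control arrays. That difference was called for 2086 genes (10.5%), 1117 higher and 969 lower in CWR22Rv1. On this scale TNFRSF9 differed by -2.18, BCL2A1 by -1.72, ADAM12 by -1.54, LPL by -1.49 and CD44 by -0.75, with adjusted p of 1.4e-05, 0.0034, 4.2e-06, 0.0089 and 2.7e-04. CDH1 (-0.24, adjusted p = 0.202), FGFBP1 (-0.22, 0.626) and AXL (-0.70, 0.167) were not called on it. Of the 12 largest positive differences 2 were called on it, F2RL2 (2.52) and, with the sign turned, PPL (-0.80). Of the 12 largest negative ones 7 were called. STAT3 differed by 0.51 (adjusted p = 0.0173). This comparison was chosen after the data were seen.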

How the data were processed

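The arrays were Affymetrix U133 Plus 2.0, and the authors deposited log2 values per probe set. RMA and limma are listed, with no version, per the submitters' processing notes. RMA makes the arrays' value distributions alike, so a shift shared by most genes of a group cannot be seen, and values near the low end understate changes. The deposited values ran from 1.54 to 14.3 and array medians from 5.16 to 5.20; they were used unscaled and unfiltered. How far a value lay above background is unknown, and the number of arrays limits the precision. Of 54675 probe sets 41091 named 1 symbol, 1801 several and 11721 none, and 62 were controls. These gave 19775 genes, 10523 of them with more than 1 probe set, from which the one with the highest mean over 18 arrays was taken.

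A linear model with a mean for each of 6 groups was fitted in limma 3.58.1 under R 4.3.3 (lmFit, eBayes, 12 residual and 3.82 prior degrees of freedom), with two-sided tests and Benjamini-Hochberg adjustment over all genes. The script was tested on simulated data. Named genes were STAT3, the 12 largest called differences each way with no overlap of array effects, up to 10 genes called in opposite directions, up to 4 with like changes, up to 4 called members of each list with 3 or more, and a fixed set of STAT3 targets and receptors. Called genes of other lists, and genes in lists with fewer calls, were named after their values were seen. The members and the gene lists were chosen with earlier results of these data known. Same-numbered control and Stat3 siRNA arrays deviated together in DU145 (correlations 0.2, 0.16 and 0.33) but not in CWR22Rv1 (0.0051, 0.034 and -0.0093), so the fit without a block was kept and the block's values are given beside the counts it moves. Alternatives were other normalisations, a filter, the mean of probe sets, array weights, an intensity trend with a robust prior, replicate blocks, 12 arrays only and leaving out arrays. Promoter windows and motif matches came from a RefSeq table of GRCh38.p14.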

Additional observations from a re-analysis of the deposited data

Results flagged for a closer look

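What is set out here is the difference between the lines itself, tested as an interaction in limma. It was called for 593 genes with Stat3 siRNA, each gene's own value being the comparison of the report, and for 2357 genes with Stat5a/b siRNA. For Stat3 siRNA minus Stat5a/b siRNA it was called for 2086 genes. STAT3 was called with a difference of 0.49, at the edge of the threshold.

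Changes that were called in both lines and ran in opposite ways were found for 16 genes. The 10 with the larger changes had differences of -1.25 (AFAP1L2), 0.94 (SLC40A1), 0.86 (ZNF793-AS1), 0.79 (GALNT3 and RAB27B), 0.68 (TUBA3FP), -0.73 (CD44), 0.66 (IGF2BP3), -0.65 (PDPN) and -0.51 (SEMA3C).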

How the results depend on the processing

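The sign of all 593 called differences was kept in all 22 alternatives but the mean of probe sets (589 of 593) and the filter. The filter tested 516 of them, all of the same sign. These genes were picked for their differences on the same arrays, so a kept sign says little. Calls were kept for 566 of the 593 with the intensity trend and for 366 with 12 arrays only. They were kept for 325 with the mean of probe sets and for 283 without CWR22Rv1 Stat3 1. With the filter left aside, 155 genes were called in every setting. The count of called differences was 904 with an intensity trend and robust prior and 903 with the replicate block within line. It was 402 with 12 arrays only and 436 with the mean of probe sets. With a higher CWR22Rv1 effect there were 234 genes with 12 arrays only, 558 with the trend, 550 with the filter on low values, 555 with the replicate block within line and 239 without both DU145 replicate 3 arrays, chosen after seeing the data. Leaving out 1 array gave 292 to 780 called genes, 166 to 490 of them higher and 126 to 290 lower. Genes changed in DU145 numbered 2457 to 3075 and in CWR22Rv1 448 to 1071, and with array weights by line 2059 and 2421. Genes called in opposite directions numbered 9 with 12 arrays only, 28 with weights, 7 with the mean of probe sets, 35 with the replicate block within line and 3 to 23 without 1 array. The block shared by both lines changed the calls of ENPP2, GINS1, VEGFA, MUC1, PIAS3, CCL20, OCLN, COL13A1 and HERPUD1 and that within line those of SLC7A11, VEGFA, MUC1, PTPN6, CCL20 and HERPUD1, among the genes named. The STAT3 difference stayed above zero and was not called with 12 arrays only (0.49), weights (0.49), cyclic loess (0.45), the mean of probe sets (0.34), without both DU145 replicate 3 arrays (0.48) and on its other probe sets (0.19, 0.39 and 0.30), and was 0.41 to 0.57 without 1 array. SOCS3 turned sign on 1 probe set (-0.16) and without DU145 Stat3 replicate 2 (-0.08), without a call. Other named genes had probe sets of opposite sign as well. Among the 24 largest differences, 13 genes had 30 other probe sets, 25 of the same sign and 5 of the opposite one. Of these, 5 of the same sign and 0 of the opposite sign were called. The causes were not tested. With 3 arrays a group, differences under about the median half-width of 0.297 were mostly not resolved.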
